A study of Mus musculus with 20 samples.

Results

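Adipogenesis, the making of fat cells, was followed in dermal fibroblasts through 10 genes: Pparg, Cebpa, Cebpb, Zfp423, Lpin1, Plin2, Lpl, Cd36, Fabp4 and Adipoq. Each gene was read from the probe sets annotated to it alone, and the one that was brightest on average across the 20 arrays stood for the gene. The 10 genes are among 17097 genes measured, and their 18 probe sets are among 28898 probe sets that name 1 gene. The study's authors have described adipogenic traits in fibroblasts of old mice, and the levels of these genes with age and diet bear on that question.

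RNA came from dermal fibroblasts of female mice, with 1 array per mouse and 5 mice in each of 4 groups. Old CR-ND mice entered at 9 months of age, spent 7 months on 30% caloric restriction (CR) and then returned to a normal diet (ND) for 2 months. Old CR mice entered at the same age, ate the normal diet for 2 months and were then restricted by 30% for 7 months until collection. Old ND mice ate the normal diet freely for all 9 months, and mice of the 3 old groups were collected at 18 months of age. Young ND mice were 4 weeks old and ate the normal diet freely for 4 weeks, and their age at collection is not stated. No genetic change is named for any group.

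The skin was freed of its subdermis, which holds much of the fat, and digested with collagenase. Sorting kept cells with Pdgfra and CD34 on the surface and discarded cells with CD45, CD117, CD24, CD31 or EpCam. Mature fat cells are therefore not the sorted population, and the gate against CD24 also removes cells that carry this marker of early fat cell precursors. Cells were pooled within each mouse, so fewer cells of a type and less RNA per cell cannot be told apart in any value below. The mean log2 level of 10 fibroblast marker genes lay between 10.80 and 11.08 in Old CR-ND and 10.85 and 11.06 in Old CR arrays. It lay between 10.87 and 10.98 in Old ND and 10.96 and 11.09 in Young ND arrays. Some markers of this list were lower in the old groups, as given under other observations. Values are log2 levels from microarrays normalized by the authors, with array medians between 5.27 and 5.34. A difference of 1 on this scale is a doubling of signal, and the brightness of one probe set cannot be set against that of another gene. The numbers in the sample titles form 2 separate runs, the first with 13 arrays and the second with 7. The second run holds replicates 4 and 5 of the Old CR-ND, Old ND and Young ND groups and replicate 5 of Old CR, and replicate numbers follow deposit order only.

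Fat cell formation runs as a cascade of transcription factors. C/EBP beta acts early and switches on PPAR gamma and C/EBP alpha, which then maintain each other and turn on genes for lipid uptake, lipid storage and fat cell hormones. In skin, fibroblasts of the deep dermis share their origin with the fat cells of the dermal fat layer and can give rise to them.

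The start regions of the 4 genes that passed the test in at least 1 comparison are shown here because these genes carry the results that follow. Sequences are from RefSeq on GRCm38.p6 and run from 250 bases before to 50 bases after an annotated transcription start, on the strand of the gene. RefSeq windows were found for 8 of the 10 genes, as 11 windows. Capitals mark matches to 3 motifs searched on both strands: the C/EBP motif TTNNGCAA, the nuclear receptor half-site AGGTCA that PPAR gamma and its partner bind as a pair, and the CCAAT box.
Lpin1, chr12:16610917-16611216, minus strand: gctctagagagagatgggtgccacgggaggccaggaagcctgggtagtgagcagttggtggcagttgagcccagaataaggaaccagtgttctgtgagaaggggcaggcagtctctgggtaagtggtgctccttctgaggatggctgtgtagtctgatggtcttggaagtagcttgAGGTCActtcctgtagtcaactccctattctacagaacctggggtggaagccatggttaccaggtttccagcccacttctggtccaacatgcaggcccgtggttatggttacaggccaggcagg
Zfp423, first annotated start, chr8:87959546-87959845, minus strand: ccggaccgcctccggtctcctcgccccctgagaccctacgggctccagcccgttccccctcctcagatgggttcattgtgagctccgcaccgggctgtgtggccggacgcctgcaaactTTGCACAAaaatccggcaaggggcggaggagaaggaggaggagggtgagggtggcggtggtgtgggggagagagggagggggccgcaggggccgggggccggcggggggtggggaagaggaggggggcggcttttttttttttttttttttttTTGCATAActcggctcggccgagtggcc
Cebpa, chr7:35119043-35119342, plus strand: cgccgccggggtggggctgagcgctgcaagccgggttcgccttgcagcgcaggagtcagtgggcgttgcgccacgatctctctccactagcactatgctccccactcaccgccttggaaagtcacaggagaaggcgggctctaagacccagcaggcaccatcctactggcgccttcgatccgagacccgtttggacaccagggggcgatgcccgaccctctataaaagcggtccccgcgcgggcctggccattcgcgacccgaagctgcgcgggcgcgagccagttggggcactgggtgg
Plin2, chr4:86670010-86670309, minus strand: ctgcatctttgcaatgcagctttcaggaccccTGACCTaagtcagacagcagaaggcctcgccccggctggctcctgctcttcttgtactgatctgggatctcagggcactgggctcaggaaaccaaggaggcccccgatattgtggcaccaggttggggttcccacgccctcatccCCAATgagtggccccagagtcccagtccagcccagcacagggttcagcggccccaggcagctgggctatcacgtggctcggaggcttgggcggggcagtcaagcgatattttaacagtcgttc

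The Lpin1 window holds 1 nuclear receptor half-site at bases -74 to -69 from the start. The Plin2 window holds 1 half-site on the opposite strand at -218 to -213 and a CCAAT box at -73 to -69. The Zfp423 window shown holds 2 C/EBP motifs on the opposite strand, at -131 to -124 and at 22 to 29. The window of its second annotated start, at chr8:87804390-87804689, holds 1 half-site at -34 to -29. The Cebpa window holds none of the 3 motifs. Among all 32851 RefSeq windows of this length, 10.8% held the C/EBP motif, 16.3% the half-site and 37.4% the CCAAT box. In the 11 windows of the 8 genes, these motifs were found in 2, 6 and 5 windows. A direct repeat of the half-site AGGTCA with any 1 base between was in 0 of the 11 windows and in 0.0396% of all. These matches describe letters only, and which start the sorted cells used was not measured.

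In Old ND against Young ND cells, 3 of the 10 genes passed the test, a Benjamini-Hochberg adjusted p under 0.05 from limma over all 17097 genes. Lpin1 and Cebpa were higher and Zfp423 was lower, while Pparg, Cebpb, Lpl, Cd36, Plin2, Fabp4 and Adipoq did not pass. Among all genes, 10.9% passed in this comparison. The median difference was -0.02 over the 10 genes and 0.00 over all genes. The arrays of the 2 groups overlapped for each of the 10 genes, while 7.38% of all genes had arrays that did not overlap.

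**Figure D1:**
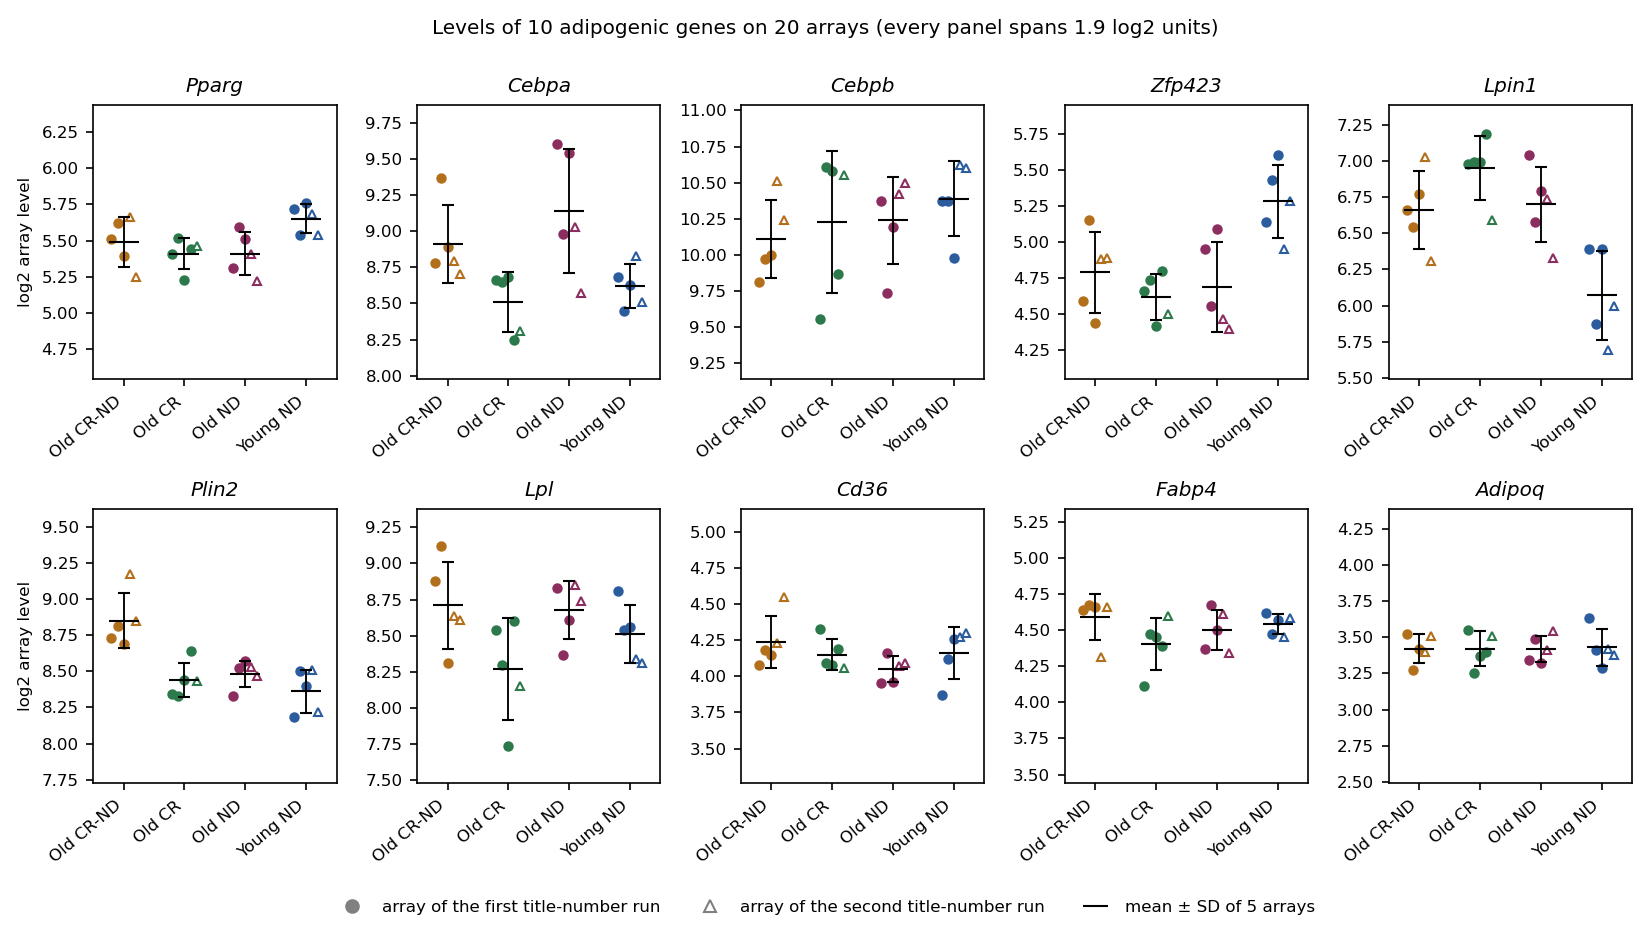
Log2 array level (vertical axis) of the 10 genes in Old CR-ND, Old CR, Old ND and Young ND cells, 1 point per array, with filled circles for the first run of title numbers, open triangles for the second, and bars for the mean ± SD of 5 arrays. Lpin1 is lowest and Zfp423 highest in Young ND, Cebpa has its 2 highest arrays in Old ND, Plin2 is highest in Old CR-ND, and the group means of Adipoq span 0.01.

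Lpin1 encodes lipin 1, a phosphatidate phosphatase of triglyceride synthesis that also acts with transcription factors of fat metabolism. Its levels were 6.66, 6.54, 6.77, 7.03 and 6.31 in Old CR-ND, 6.98, 6.99, 6.99, 7.19 and 6.59 in Old CR, 7.04, 6.58, 6.79, 6.74 and 6.33 in Old ND, and 6.39, 5.87, 6.39, 5.69 and 6.0 in Young ND cells, each from replicate 1 to 5. All 5 Old CR arrays lay above all 5 Young ND arrays, and in Old ND and in Old CR-ND only replicate 5 fell among the Young ND arrays. Replicate 5 was the lowest array in each old group.

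Lpin1 had a mean of 6.70 ± 0.26 in Old ND against 6.07 ± 0.31 in Young ND cells (SD, n = 5 each), a difference of 0.63 ± 0.16 (SE, adjusted p = 0.0107 by limma). The call held with each of the 10 arrays left out in turn. The first run alone gave 0.59 (adjusted p = 0.0221) and the second run alone gave 0.69 (adjusted p = 0.121). Both diets with restriction also left Lpin1 above Young ND. The difference was 0.88 ± 0.16 in Old CR (adjusted p = 0.000605) and 0.59 ± 0.16 in Old CR-ND (adjusted p = 0.0231). The Old CR-ND call was lost, at adjusted p values of 0.0514 to 0.0695, without Old CR-ND replicate 3 or 4 or Young ND replicate 2, 4 or 5. Among the old groups the order was Old CR, Old ND and Old CR-ND, and no pair of them passed the test. Old CR exceeded Old ND by 0.25 ± 0.16 (adjusted p = 0.507, 95% interval -0.07 to 0.58).

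A second Lpin1 probe set, dimmer at a mean of 5.27, did not pass. Against Young ND it differed by 0.23 in Old CR-ND (adjusted p = 0.182 over all probe sets), by 0.13 in Old CR (adjusted p = 0.441) and by 0.11 in Old ND (adjusted p = 0.57). Both probe sets had positive differences in these 3 comparisons, but the size for Lpin1 rests on the brighter one.

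Zfp423 encodes a zinc finger protein that commits precursor cells to the fat lineage. Its levels were 4.59, 5.15, 4.44, 4.88 and 4.89 in Old CR-ND, 4.66, 4.74, 4.42, 4.80 and 4.50 in Old CR, 4.95, 4.56, 5.09, 4.47 and 4.40 in Old ND, and 5.14, 5.43, 5.60, 4.95 and 5.28 in Young ND cells. Young ND arrays were the highest, no Old CR array reached them, and replicates 1 and 3 of Old ND and replicate 2 of Old CR-ND fell within their range.

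Zfp423 had a mean of 4.69 ± 0.31 in Old ND against 5.28 ± 0.25 in Young ND cells, a difference of -0.59 ± 0.15 (adjusted p = 0.0127). This call held with each of the 10 arrays left out in turn. Arrays of the first run gave -0.52 (adjusted p = 0.109) and those of the second -0.68 (adjusted p = 0.0163). Old CR also had less Zfp423 than Young ND, with a difference of -0.66 ± 0.15 (adjusted p = 0.00506). In Old CR-ND the difference from Young ND was -0.49 ± 0.15, which did not pass (adjusted p = 0.0525). It passed in 7 of 11 other settings, whose adjusted p values ran from 0.0298 (run as block) to 0.531 (second run alone) over all 11, and in 2 of 10 fits with an array left out. Without Old CR-ND replicate 2 it had an adjusted p of 0.0256, and without Young ND replicate 4 one of 0.0287. The 3 old groups lay within 0.17 of each other and no pair passed. Zfp423 is dim on these arrays, and a filter that drops genes whose highest group mean is under the median gene level leaves it out.

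Cebpa encodes C/EBP alpha, the factor that maintains the fat cell state together with PPAR gamma. Its levels were 8.78, 9.37, 8.89, 8.79 and 8.70 in Old CR-ND, 8.66, 8.65, 8.68, 8.25 and 8.31 in Old CR, 9.60, 8.98, 9.54, 9.03 and 8.57 in Old ND, and 8.68, 8.45, 8.63, 8.83 and 8.51 in Young ND cells. Old ND replicates 1 and 3 were the highest of all 20 arrays, and Old ND replicate 5 lay inside the Young ND range. Old ND spread more widely than the other groups, with an SD of 0.43.

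Cebpa had a mean of 9.14 in Old ND against 8.62 ± 0.15 in Young ND cells, a difference of 0.52 ± 0.17 that passed narrowly (adjusted p = 0.0448). The call was lost, at adjusted p values of 0.0544 to 0.128, without Old ND replicate 1, 3 or 4 or without Young ND replicate 1, 2, 3 or 5. The difference ranged from 0.41 to 0.67 over all 10 fits with an array left out, and was highest without Old ND replicate 5 (adjusted p = 0.00593), which kept the call. It was 0.79 (adjusted p = 0.0156) within the first run, against 0.13 (adjusted p = 0.826) within the second, and the difference between the runs was not tested. The 2 highest Old ND arrays stood at opposite ends of the keratinocyte marker list, with a mean log2 level of 7.78 in replicate 1 and 5.59 in replicate 3.

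In Old CR against Old ND cells, 1 of the 10 genes passed, and this was Cebpa. Among all genes, 2.39% passed. Cebpa averaged 8.51 ± 0.21 in Old CR cells, -0.63 ± 0.17 from Old ND (adjusted p = 0.0456), and its arrays overlapped through Old ND replicate 5. The call was kept in only 1 of the 10 fits with an array left out, the one without Old ND replicate 5 (adjusted p = 0.00919), and lost in the others at adjusted p values of 0.0509 to 0.133. It was -0.81 (adjusted p = 0.017) within the first run and -0.49 (adjusted p = 0.997) within the second, which has 1 Old CR array. Old CR and Young ND differed by -0.11 ± 0.17 (adjusted p = 0.768, 95% interval -0.45 to 0.23). In Old CR-ND, Cebpa lay between Old ND and Young ND at a mean of 8.91 and passed against neither. All 5 Old CR-ND arrays were above all 5 Old CR arrays, with a difference of 0.40 ± 0.17 that did not pass (adjusted p = 0.405). The Old ND arrays enter both comparisons of Cebpa, so its 2 calls are not independent.

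The median difference of the 10 genes in Old CR against Old ND was -0.03, and 0 of the 10 had arrays that did not overlap, beside 3.23% of all genes. After Cebpa, Lpl had the largest difference at -0.41 ± 0.16 (adjusted p = 0.201). Pparg, Cebpb, Zfp423, Plin2 and Adipoq differed by at most 0.07 in size, each with an adjusted p of 0.882 or more.

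**Figure D2:**
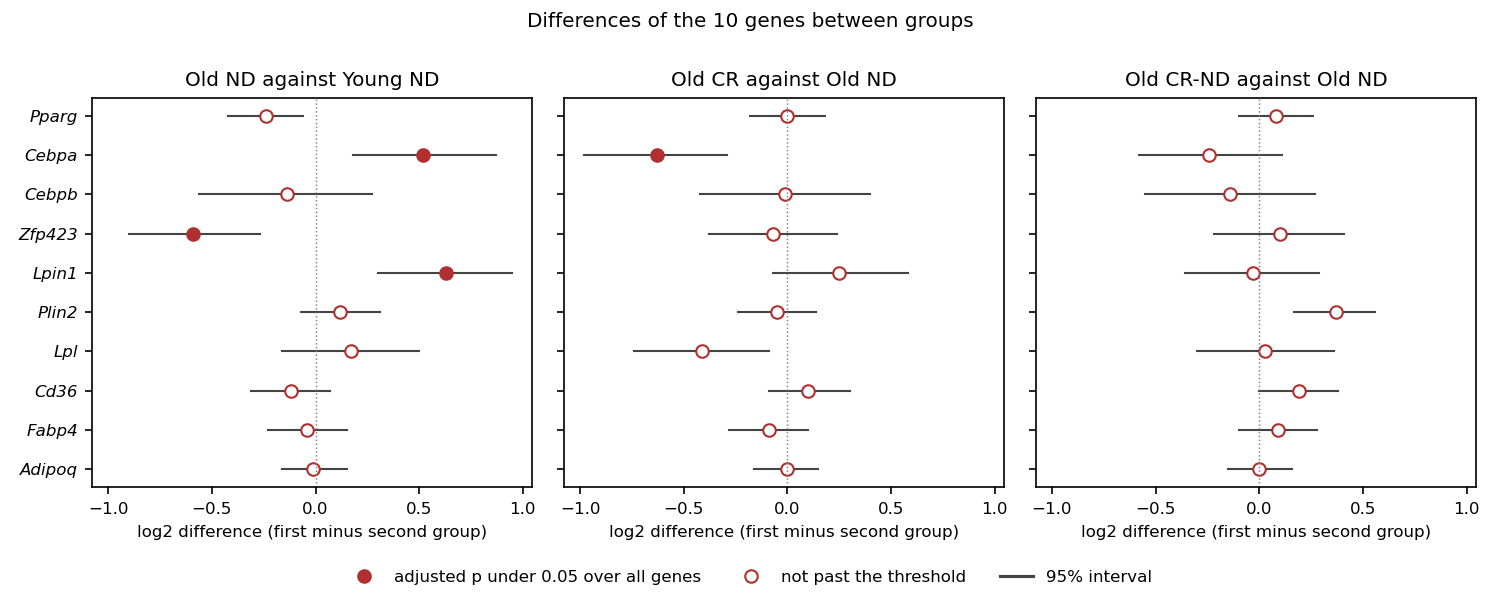
Log2 difference (horizontal axis, first minus second group) of the 10 genes in 3 comparisons, with 95% intervals as lines and filled points for genes with an adjusted p under 0.05 over all genes. Lpin1, Cebpa and Zfp423 are filled in Old ND against Young ND, Cebpa alone in Old CR against Old ND, and no gene in Old CR-ND against Old ND.

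Pparg encodes PPAR gamma, the nuclear receptor on which fat cell formation depends. Its levels were 5.51, 5.62, 5.39, 5.66 and 5.25 in Old CR-ND, 5.41, 5.52, 5.23, 5.44 and 5.46 in Old CR, 5.31, 5.59, 5.51, 5.41 and 5.22 in Old ND, and 5.72, 5.54, 5.76, 5.68 and 5.54 in Young ND cells. Every Old CR array lay below every Young ND array, and Old ND overlapped Young ND through its replicate 2.

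Pparg had a mean of 5.41 ± 0.15 in Old ND against 5.65 ± 0.10 in Young ND cells, a difference of -0.24 ± 0.09 that missed the threshold (adjusted p = 0.085, 95% interval -0.42 to -0.06). It passed without Old ND replicate 2, at -0.29 (adjusted p = 0.0438). Centring the arrays also made it pass (adjusted p = 0.0377), as it did with a further quantile normalization (adjusted p = 0.0387). Within runs the difference was -0.20 in the first and -0.29 in the second, with adjusted p values of 0.292 and 0.398. Old CR differed from Young ND by the same -0.24 ± 0.09 (adjusted p = 0.0841) and Old CR-ND by -0.16 ± 0.09 (adjusted p = 0.331). The Old CR difference passed with centring (adjusted p = 0.0357), with quantile normalization (adjusted p = 0.0462) and with array weights (adjusted p = 0.0224). In Old ND, where Cebpa was higher, the difference of Pparg from Young ND was negative in every fit tried.

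Cebpb encodes C/EBP beta, the early factor of the cascade. Its arrays ranged from 9.81 to 10.51 in Old CR-ND, 9.56 to 10.61 in Old CR, 9.74 to 10.50 in Old ND and 9.98 to 10.62 in Young ND cells. All 4 ranges overlap. Cebpb differed by -0.14 ± 0.20 in Old ND against Young ND (adjusted p = 0.743, 95% interval -0.56 to 0.27), and the other 2 Cebpb probe sets differed by -0.09 and -0.01.

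In Old CR-ND against Old ND cells, 0 of the 10 genes passed by limma, and 0.00585% of all genes did, which is 1 gene. That gene, Rian, is a noncoding RNA outside the adipogenic set, and 868 genes had an unadjusted p under 0.05. The median difference of the 10 genes was 0.06. Arrays did not overlap for 1 of the 10 genes, Plin2, beside 0.48% of all genes.

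Plin2 encodes perilipin 2, a coat protein of lipid droplets found in many cell types besides fat cells. Its levels were 8.73, 8.81, 8.69, 9.17 and 8.85 in Old CR-ND, 8.34, 8.33, 8.44, 8.64 and 8.43 in Old CR, 8.33, 8.52, 8.57, 8.53 and 8.47 in Old ND, and 8.18, 8.50, 8.40, 8.51 and 8.22 in Young ND cells. All 5 Old CR-ND arrays were above the 15 arrays of the other groups, with replicate 4 the highest.

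Plin2 averaged 8.85 ± 0.19 in Old CR-ND and 8.36 ± 0.15 in Young ND cells, a difference of 0.49 ± 0.09 (adjusted p = 0.00173) that passed with each of the 10 arrays left out in turn. It was 0.38 (adjusted p = 0.0641) within the first run and 0.65 (adjusted p = 0.0443) within the second. Against Old ND, whose mean was 8.48 ± 0.09, the difference was 0.37 ± 0.09 (95% interval 0.17 to 0.56) and did not pass over all genes (adjusted p = 0.396). Against Old CR it was 0.41 ± 0.09, just short of the threshold (adjusted p = 0.0532). It passed there when the run was a block (adjusted p = 0.0451) and also without Old CR replicate 4 (adjusted p = 0.0495) and without Old CR-ND replicate 3 (adjusted p = 0.0405). Neither Old CR nor Old ND passed against Young ND in Plin2, at 0.07 (adjusted p = 0.711) and 0.12 (adjusted p = 0.484).

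Of 9 markers of sebaceous glands, whose cells store lipid droplets, 4 were measured, and Awat1 and Awat2 were among those that were not. Far2 alone of the 4 passed, in Old CR-ND against Young ND only, beside 7.04% of all genes. The mean log2 level of the 4 lay between 4.25 and 5.07 in Old CR-ND, 4.12 and 4.37 in Old CR, 4.18 and 4.47 in Old ND, and 4.04 and 4.48 in Young ND arrays. Far2, a fatty acyl-CoA reductase of wax synthesis, was higher in Old CR-ND than in Young ND by 1.46 ± 0.32 (adjusted p = 0.006), a gene picked after its values were seen. Its differences of 1.26 from Old ND (adjusted p = 0.396) and 1.24 from Old CR (adjusted p = 0.102) did not pass. Far2 read 5.57, 6.87, 7.00, 8.12 and 7.10 in the 5 Old CR-ND arrays, against means of 5.70 in Old CR, 5.67 in Old ND and 5.48 in Young ND cells. Old CR-ND replicate 4 had the highest Plin2, Far2 and mean sebaceous marker levels. The defining sebaceous marker Mc5r averaged 3.90 in Old CR-ND and 3.85 to 3.91 in the other groups. Elovl3 averaged 3.77 in Old CR-ND and 3.65 to 3.78 in the others. Cidea averaged 4.05 in Old CR-ND and 3.74 to 3.82 in the others, and its highest array, at 4.35, was also Old CR-ND replicate 4. Its difference of 0.24 from Old ND did not pass (adjusted p = 0.884 by limma). The part of these cells in the Plin2 difference was not tested.

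Against Young ND, the restricted groups gave 2 calls each among the 10 genes. In Old CR these were Lpin1, higher, and Zfp423, lower, beside 12.7% of all genes. In Old CR-ND they were Plin2 and Lpin1, both higher, beside 7.04% of all genes. In Old CR-ND against Old CR, 0 of the 10 genes and 0.333% of all genes passed by limma, with 1674 genes at an unadjusted p under 0.05. These comparisons share the Young ND arrays with each other and with Old ND against Young ND.

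Lpl encodes lipoprotein lipase, which frees fatty acids from circulating lipoproteins. Its levels were 8.88, 9.12, 8.31, 8.64 and 8.61 in Old CR-ND, 8.54, 8.30, 7.74, 8.60 and 8.15 in Old CR, 8.83, 8.37, 8.61, 8.85 and 8.74 in Old ND, and 8.81, 8.54, 8.56, 8.34 and 8.31 in Young ND cells. Old CR had the lowest mean, 8.27 ± 0.35, with replicate 3 the lowest array. The groups overlapped in every comparison. Old ND differed from Young ND by 0.17 ± 0.16 (adjusted p = 0.597), a value that was -0.03 on first-run arrays alone (adjusted p = 0.96) and 0.47 on second-run arrays alone (adjusted p = 0.0456). Old CR-ND exceeded Old CR by 0.45 ± 0.16 (adjusted p = 0.293). A second, dimmer Lpl probe set differed by 0.11 in Old ND against Young ND (adjusted p = 0.823 over all probe sets) and by -0.25 in Old CR against Old ND (adjusted p = 0.661).

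Cd36, a fatty acid translocase at the cell surface, was read at 4.08 to 4.55 in Old CR-ND, 4.06 to 4.33 in Old CR, 3.95 to 4.16 in Old ND and 3.87 to 4.30 in Young ND cells. Replicate 5 of Old CR-ND was the highest of the 20 arrays. Most of these levels lie near or below the lower quartile of the arrays, which ran from 4.11 to 4.25. Cd36 differed by -0.12 ± 0.09 in Old ND against Young ND (adjusted p = 0.506) and by 0.19 ± 0.09 in Old CR-ND against Old ND (adjusted p = 0.971).

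Adipoq encodes adiponectin, a hormone made by mature fat cells. Its arrays lay between 3.27 and 3.52 in Old CR-ND, 3.25 and 3.55 in Old CR, 3.32 and 3.54 in Old ND, and 3.29 and 3.63 in Young ND cells. All 20 values were below the lower quartile of every array, and the 4 group means differed by at most 0.01. For Old ND against Young ND the 95% interval was -0.16 to 0.15. Dim probe sets compress differences, so a change below the reach of this probe set would not be seen.

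Fabp4 encodes a fatty acid carrier abundant in fat cells and also present in capillary endothelium and macrophages. On its brightest probe set, 1424155_PM_at, the levels were 4.64, 4.67, 4.66, 4.31 and 4.66 in Old CR-ND, 4.11, 4.47, 4.45, 4.39 and 4.60 in Old CR, 4.37, 4.67, 4.50, 4.61 and 4.34 in Old ND, and 4.62, 4.47, 4.57, 4.45 and 4.58 in Young ND cells. The 4 groups overlapped and differed by -0.04 ± 0.09 in Old ND against Young ND (adjusted p = 0.857). The other 2 probe sets gave a different picture in a few arrays. On 1451263_PM_a_at, Old CR replicate 5 read 5.40 while the other Old CR arrays lay between 3.66 and 4.09, and Old ND replicates 4 and 5 read 4.60 and 4.17 while the other Old ND arrays lay between 3.67 and 3.73. On 1417023_PM_a_at the same 3 arrays read 5.15, 5.00 and 4.53, above the other arrays of their groups. All 3 belong to the second run of title numbers.

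None of the 3 probe sets passed in any comparison. For 1451263_PM_a_at the difference was 0.49 ± 0.24 in Old CR against Young ND (adjusted p = 0.225 over all probe sets) and 0.34 ± 0.24 in Old ND against Young ND (adjusted p = 0.46). In the arrays Old CR replicate 5, Old ND replicate 4 and Old ND replicate 5, the endothelial marker list had mean levels of 4.93, 4.93 and 5.04, and the macrophage list 4.75, 4.68 and 4.81. The endothelial list ran from 4.67 to 5.05 over all arrays, and the macrophage list from 4.68 to 4.97. The part of such cells in the Fabp4 values was not tested.

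**Figure D3:**
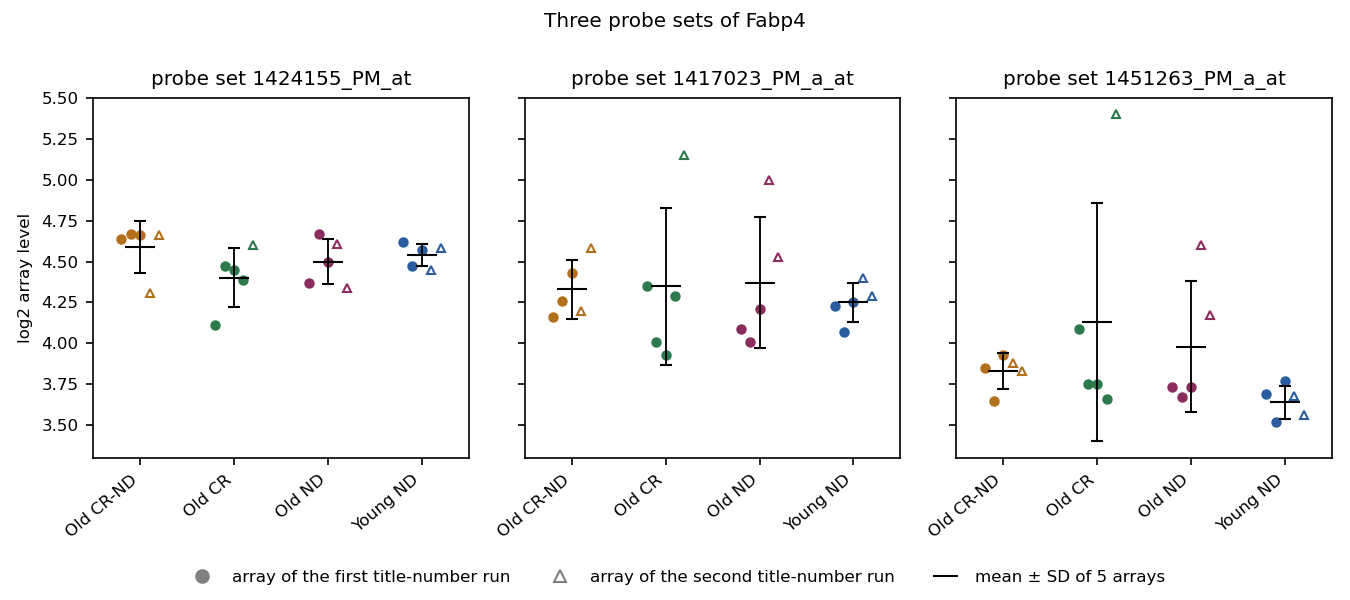
Log2 array level (vertical axis) of the 3 Fabp4 probe sets in Old CR-ND, Old CR, Old ND and Young ND cells, 1 point per array, circles for the first and triangles for the second run of title numbers, bars for mean ± SD of 5 arrays. Old CR replicate 5, at 5.40, and Old ND replicate 4, at 4.60, stand above their groups on 1451263_PM_a_at. On 1424155_PM_at Old CR replicate 5 is also the highest Old CR array, at 4.60 beside 4.11 to 4.47 in the others. Old ND replicate 4, at 4.61, is there below Old ND replicate 2, at 4.67.

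Beside the 10 genes, 7 lists of fat cell genes were examined. In Old ND against Young ND, 6 of 22 further adipogenic transcription factors passed, 5 higher and 1 lower, with a median difference of 0.00. The share of all genes that passed in this comparison, 10.9%, stands beside this count and those of the other lists. Egr2, an early activator of the cascade, was higher by 0.84 ± 0.13 (adjusted p = 0.000153). Klf5, which activates Pparg, was higher by 0.60 ± 0.14 (adjusted p = 0.00629) over both runs, and by 0.21 (adjusted p = 0.52) within the second run. The coactivator Ppargc1b was higher by 0.35 ± 0.07 (adjusted p = 0.00144). Ebf2, which marks committed precursors, and Zfp467 were higher by 0.90 ± 0.23 and 0.41 ± 0.11, both named after their values were seen. Stat5b, a hormone-driven activator of fat cell genes, fell by 0.99 ± 0.15 (adjusted p = 9.84e-05), with means of 9.67 in Old ND and 10.66 in Young ND cells.

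Genes listed as inhibitors of adipogenesis were called as often: 6 of 22 passed, 5 higher and 1 lower, with a median of 0.06. The role of each listed gene in these cells was not tested. Zfp521, which opposes Zfp423 and its partner Ebf1, was higher by 0.63 ± 0.13 (adjusted p = 0.00226). Nr2f2 was higher by 1.40 ± 0.30 (adjusted p = 0.00302), and the Wnt effector Tcf7l2 by 0.64 ± 0.16 (adjusted p = 0.0114). As the mean of its probe sets, Nr2f2 was higher by 0.95 and kept its call. Tcf7l2 lost its call in the second run alone, at 0.51 (adjusted p = 0.112). Sox9, a factor of precursor cells, was higher by 0.91 ± 0.23 (adjusted p = 0.0115), but by 0.29 (adjusted p = 0.0562) as the mean of its probe sets. Cyp1b1 was higher by 0.50 ± 0.15 and the ligand Wnt5a fell by 0.64 ± 0.16, both named after their values were seen. Both lists thus had 5 higher genes and 1 lower gene in Old ND cells.

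Of 17 genes of triglyceride synthesis, 0 were higher and 5 were lower in the Old ND cells than in Young ND cells, with a median of -0.09. Gpam, the mitochondrial enzyme of the first step, fell by 0.74 ± 0.17 (adjusted p = 0.005). Gpat4, a related enzyme in the endoplasmic reticulum, fell by 0.33 ± 0.08 (adjusted p = 0.00742). The Gpat4 call was lost as the mean of its probe sets, at -0.17 (adjusted p = 0.0796). It was also lost in the first run alone (adjusted p = 0.0538) and in the second (adjusted p = 0.226). The relatives of Lpin1 had the opposite sign to it. Lpin3 fell by 0.66 ± 0.13 (adjusted p = 0.002) and Lpin2 fell by 0.37 ± 0.10 (adjusted p = 0.0182). The Lpin2 call was lost without Young ND replicate 2 (adjusted p = 0.0629) or Old ND replicate 4 (adjusted p = 0.052). Agpat3 fell by 0.33 ± 0.10, named after its values were seen.

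Among 18 genes of fatty acid uptake and the lipase system, 1 was higher and 3 lower, with a median of 0.08. Cav1, the caveolin of the cell surface, fell by 0.90 ± 0.18 (adjusted p = 0.00185). The acyl-CoA synthetase Acsl3 fell by 0.55 ± 0.14 (adjusted p = 0.01) and the fatty acid transporter Slc27a4 fell by 0.38 ± 0.09 (adjusted p = 0.00907). Slc27a3 was higher by 0.50 ± 0.11 (adjusted p = 0.00571). Of 16 droplet and lipolysis genes, Lipa, the lysosomal acid lipase, was higher by 0.47 ± 0.08 (adjusted p = 0.000635) and Abhd5, a coactivator of fat breakdown, fell by 0.54 ± 0.13 (adjusted p = 0.0076). The list's median was 0.05. None of 17 genes in the list of products of mature fat cells, which also holds receptors and enzymes, passed, with a median of -0.04. The smallest p was that of Adipor2, an adiponectin receptor, at -0.33 ± 0.11 (adjusted p = 0.0597). Retn came next, with the opposite sign, at 0.23 ± 0.09 (adjusted p = 0.137).

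Markers of fat cell precursors went both ways: of 13 measured, 2 were higher and 3 lower, with a median of -0.07. Cd24a fell by 1.17 ± 0.21 (adjusted p = 0.000691), in cells sorted against the CD24 protein, and Cd55 fell by 0.67 ± 0.11 (adjusted p = 0.000392). Cd34, part of the gate, fell by 0.30 ± 0.09 and is named after its values were seen. Pdgfra, also part of the gate, had the opposite sign, at 0.49 ± 0.17, and did not pass (adjusted p = 0.0699). Cd9 was higher by 0.39 ± 0.11 (adjusted p = 0.0289) and F3 by 0.29 ± 0.08 (adjusted p = 0.0298). The Cd9 call was lost in 5 of 10 fits with an array left out and the F3 call in 6 of 10, when Old ND replicate 1 or 3 or Young ND replicate 2 was left out among others.

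The 22 list genes named by rule and called with age kept their sign within each run, and 14 kept the call with arrays of the first run alone and 8 with those of the second.

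In Old CR against Old ND, 7 list genes were called, beside 2.39% of all genes. Egr2 fell by 0.64 ± 0.13 (adjusted p = 0.0119) and Stat5b was higher by 0.61 ± 0.15 (adjusted p = 0.0296), the only 2 of 22 transcription factors. Of 22 inhibitors, Ccn5, a secreted factor of the Wnt pathway, fell by 0.96 ± 0.16 (adjusted p = 0.00393) and Sox9 fell by 0.92 ± 0.23 (adjusted p = 0.0349). Acsl3 was higher by 0.64 ± 0.14 (adjusted p = 0.0156), alone of 18 uptake genes. Rbp4, a retinol carrier made by fat cells, was higher by 0.54 ± 0.14 (adjusted p = 0.0494), alone of 17 genes in the list of fat cell products. Dpp4, a marker of early precursors, was higher by 0.92 ± 0.17 (adjusted p = 0.00694), alone of 13 precursor markers. None of 16 droplet genes and none of 17 triglyceride synthesis genes passed, and the medians of the 7 lists lay between -0.02 and 0.06.

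Leaving out single arrays ended some of these calls. Stat5b was lost in 5 of 10 such fits, with an adjusted p of up to 0.0886, namely without Old CR replicate 2 or 3 or Old ND replicate 1, 2 or 3. Sox9 was lost in 6 of 10, with an adjusted p of up to 0.0964, and kept without Old CR replicate 5 or Old ND replicate 2, 4 or 5. As the mean of its probe sets, Sox9 differed by -0.33 (adjusted p = 0.0777) and Stat5b by 0.59 (adjusted p = 0.1), both without a call. Rbp4 kept its call in 1 of 10, the fit without Old CR replicate 4, with an adjusted p of up to 0.138. Acsl3 was lost without Old CR replicate 4 (adjusted p = 0.0521). Egr2, Ccn5 and Dpp4 kept theirs in 10 of 10. With only the 2 groups compared, Egr2 and Stat5b (adjusted p = 0.063 each), Sox9 (0.101) and Rbp4 (0.133) lost the call, and Ccn5, Acsl3 and Dpp4 kept it. Of these 7 calls, 6 were kept in the first run alone and 0 in the second, which has 1 Old CR array. The Old ND arrays enter this comparison and the one with age, so opposite signs in the 2 comparisons are not independent.

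No gene of the 7 lists passed in Old CR-ND against Old ND, with list medians from -0.05 to 0.05. The smallest p among droplet genes was that of Mgll, the monoglyceride lipase, at 0.46 ± 0.12 (adjusted p = 0.405). In the list of fat cell products it was that of Scd1, a fatty acid desaturase, which averaged 9.50 in Old CR-ND and 8.82 in Old ND cells (adjusted p = 0.733).

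**Figure D4:**
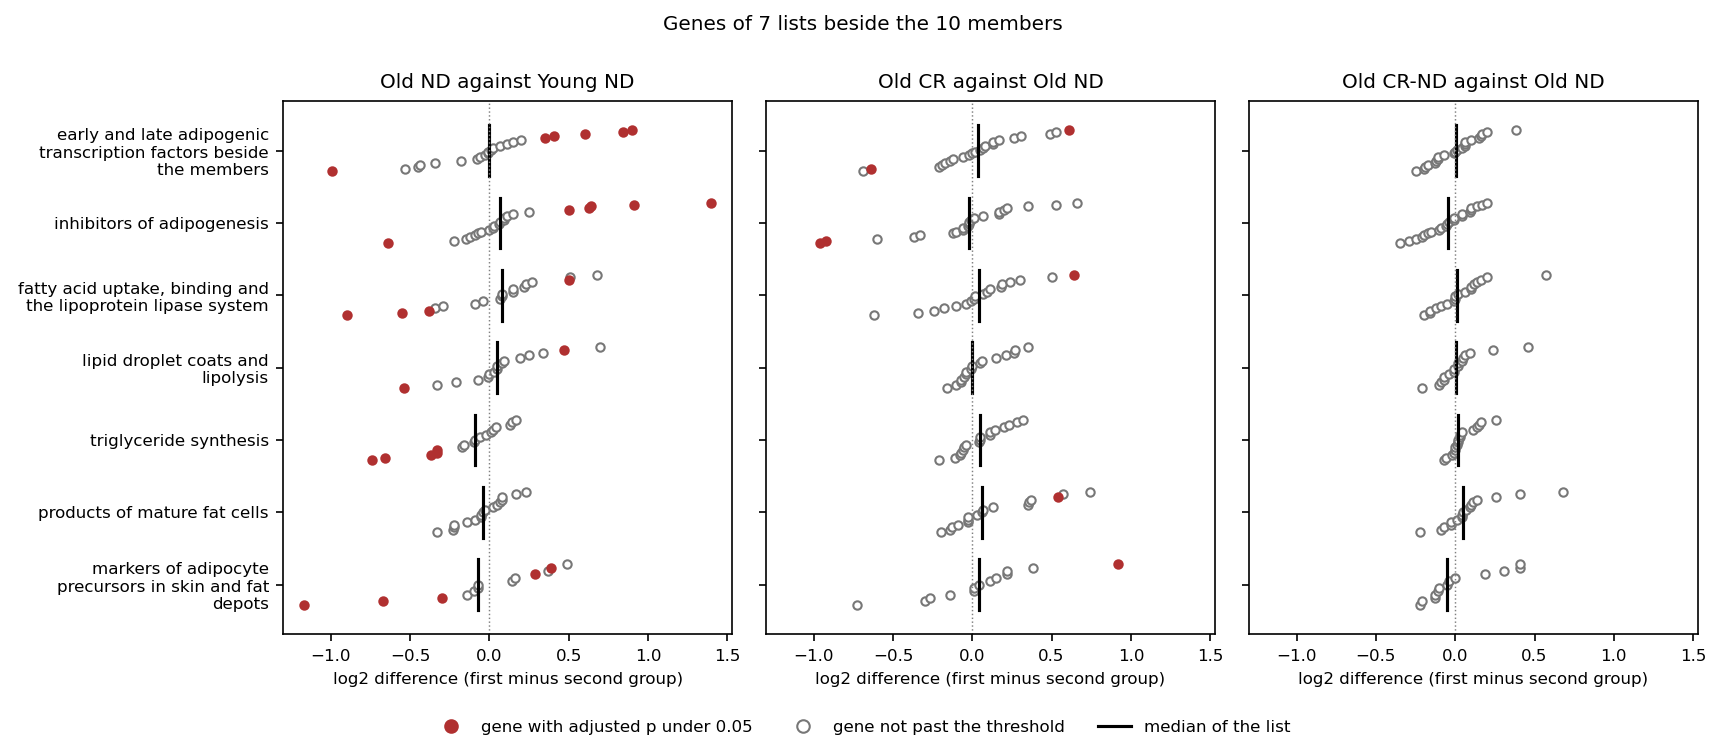
Log2 difference (horizontal axis, first minus second group) of the genes of 7 fat cell lists in 3 comparisons, 1 point per gene, filled for an adjusted p under 0.05 over all genes, with a black line at each list's median. In Old ND against Young ND filled points lie on both sides of 0 for the transcription factors and the inhibitors and only below 0 for triglyceride synthesis, and Old CR-ND against Old ND has no filled point.

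Of 11 markers of mature fat cells listed, 7 were measured, and Plin1, Cidec and Cfd were among those that were not. In each comparison 0 of the 7 passed, beside shares of all genes from 0.00585% to 12.7%, so few calls could be looked for in a list this short. Their mean log2 level lay between 4.99 and 5.13 in Old CR-ND, 4.94 and 4.99 in Old CR, 4.91 and 5.15 in Old ND, and 4.97 and 5.02 in Young ND arrays. Leptin, encoded by Lep, averaged 4.55 in Old CR-ND, 4.47 in Old CR, 4.51 in Old ND and 4.46 in Young ND cells. Retn averaged 5.96 in Old CR-ND, 5.99 in Old CR, 6.19 in Old ND and 5.96 in Young ND cells.

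For Cebpa, Lpin1 and Zfp423, whose group means spanned at least 0.5, the genes whose levels ran most like theirs over the 20 arrays are given as a description. Lrrc15, a membrane protein of activated fibroblasts, was most like Cebpa, with a Pearson r of 0.91 over the 20 arrays and 0.82 after the group means were removed. Lrrc15 read 9.10, 7.46, 9.53, 7.34 and 6.31 in Old ND cells, with the same 2 arrays on top as Cebpa, and 5.51 to 6.36 in Young ND cells. Ripor1 and Notch1 followed for Cebpa, with r of 0.87 and 0.86. Peli2, an E3 ubiquitin ligase, was most like Lpin1, with r of 0.96 and 0.90 after the group means were removed, followed by Cplane1 at 0.94 and Bbs2 at 0.92. Srprb, a subunit of the signal recognition particle receptor, was most like Zfp423 with r of 0.88, and 0.73 after the group means were removed, followed by Synj2 at 0.88 and Tbl2 at 0.86. The arrays share their groups, runs and normalization, and these genes were chosen for their r, so no test is given.

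**Figure D5:**
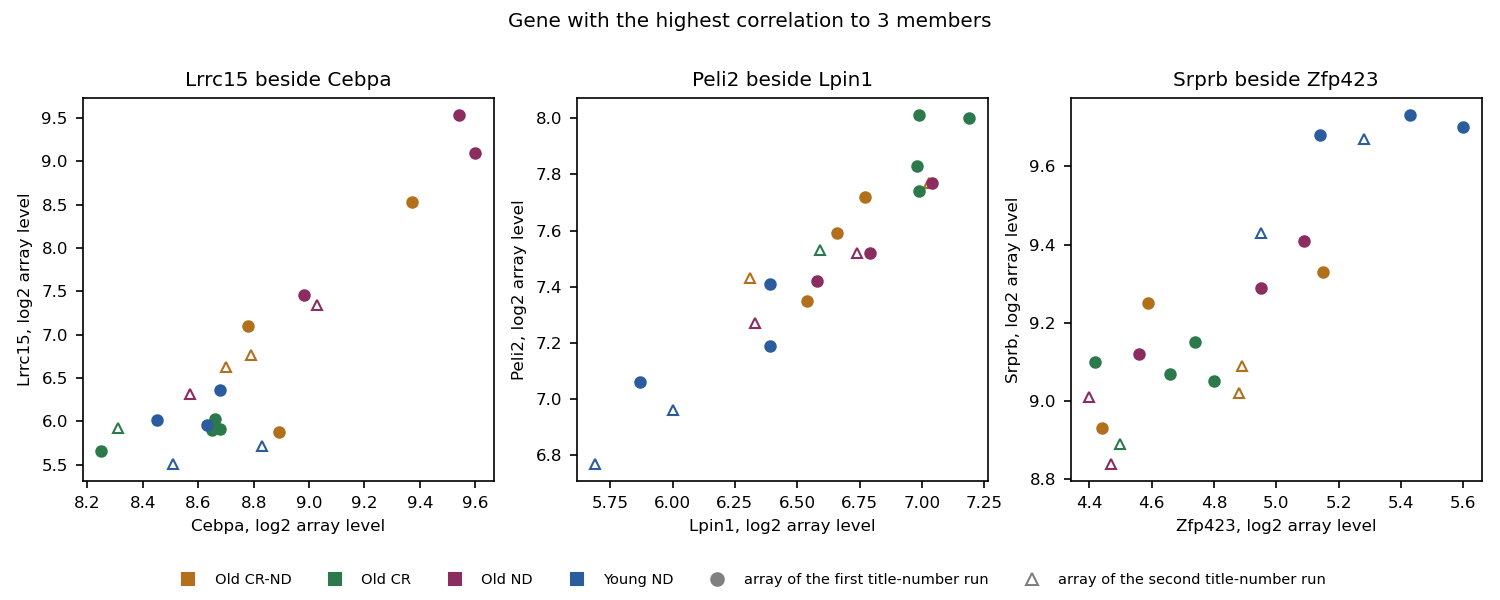
Log2 array level of Lrrc15 against Cebpa, Peli2 against Lpin1 and Srprb against Zfp423, 1 point per array, coloured by group (Old CR-ND, Old CR, Old ND, Young ND) and shaped by run of title numbers. Old ND replicates 1 and 3 are highest for both Lrrc15 and Cebpa, and Young ND has the lowest mean of both Peli2 and Lpin1.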

How the data were processed

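RNA of sorted dermal fibroblasts from 20 female mice was measured on Affymetrix arrays. The deposited values are log2 levels of single probe sets, which the authors computed by RMA in the affy package, per the submitters' processing notes, which give no versions. They range from 2.71 to 13.46, and no later filter or batch correction is stated in the sources used here. RMA makes array distributions alike, so a shift shared by most genes is not seen, and it compresses differences of dim probe sets.

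Of 45141 probe sets, 28898 carry the symbol of a single gene and were used. Another 551 carry several symbols and 15692 carry none here. Symbols were updated through Entrez numbers against RefSeq GRCm38.p6 for 28689 probe sets. Each of the 17097 genes was read from its brightest probe set on average over 20 arrays, without a filter on dim genes. No pair of arrays held identical values. Groups came from the labels, which call the 5 mice of a group biological replicates. By the design, mice of different groups shared collection days, 3 mice to a day. Which mice shared a day is not given in the sources used here, so the fit leaves the day out.

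A linear model with a mean for every group was fitted to the 20 arrays (limma 3.58.1, lmFit and eBayes, run in R 4.3.3). It had 16 residual and 4.19 prior degrees of freedom, and each contrast was tested two-sided. The Benjamini-Hochberg adjustment ran over 17097 genes, and 0.05 was the threshold. SE and 95% intervals are limma's, and the SD is over the 5 arrays of a group. Precision is limited by the number of arrays.

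The 10 genes, the 7 pathway lists and the 8 cell type lists were chosen with earlier results of these data known. From each pathway list and comparison, up to 4 called genes with the smallest adjusted p were named, or up to 2 with the smallest p where none was called. Named as most alike were the 3 genes with the highest Pearson r among genes above the median gene level. Alternatives were filters on dim genes, probe sets averaged per gene or each taken alone, centring, quantile normalization once more, array weights, robust eBayes with a trend, fits to only the 2 groups of a comparison, the run of title numbers as a block or alone, each array left out in turn, and thresholds of 0.01 and 0.1. Each further probe set of Fabp4, Lpl, Cebpb, Cd36 and Lpin1 was added as an alternative after seeing the data.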

Additional observations from a re-analysis of the deposited data

Results flagged for a closer look

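Among the 40 sets of 5 arrays, 1 per gene and group, 2 held an array far from the other 4, by a gap above 0.71 of the whole range, a rule that chance meets in about 1 of 20 sets. Cebpa read 9.37 in Old CR-ND replicate 2, while the other Old CR-ND arrays lay between 8.70 and 8.89, so the gap was 0.72 of the range. Fabp4 read 4.31 in Old CR-ND replicate 4, while the other Old CR-ND arrays lay between 4.64 and 4.67, so the gap was 0.92 of the range. The same array had the highest Plin2 level, 9.17.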

How the results depend on the processing

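None of the differences of the 10 genes that was called reversed under any alternative. Over all their alternatives, 1260 results kept their side of the threshold, 36 lost a call and 24 gained one, and 110 that were called in neither fit changed sign. Calls among the 10 genes depended on the setting as follows. For Old ND against Young ND, 3 genes became 0 at a threshold of 0.01, and Cebpa lost its call with centring (adjusted p = 0.0558) and with only the 2 groups compared (adjusted p = 0.102). For Old CR against Old ND, 1 gene became 0 with only the 2 groups, in the second run alone and at the threshold of 0.01, and leaving out 1 array gave 0 to 1. For Old CR against Young ND, 2 became 1 with the stricter filter on dim genes, which drops Zfp423, and 0 in the second run alone. For Old CR-ND against Young ND, 2 became 0 with the first run alone, 1 with the second and 1 at the threshold of 0.01, and leaving out 1 array gave 1 to 3. It became 3, with Zfp423 added, in 7 other settings: the milder filter on dim genes, averaged probe sets, centring, quantile normalization, eBayes with trend, array weights and the run as a block, and also at the threshold of 0.1. For Old CR-ND against Old CR, 0 became 1, which is Plin2, with either filter on dim genes, probe sets averaged per gene, quantile normalization, array weights, the run as a block and the threshold of 0.1, and leaving out 1 array gave 0 to 1. The number of all genes called moved by over 1.5 times in these settings. It was 1049 in the second run alone for Old ND against Young ND, where the main count was 1870. For Old CR against Old ND it was 191 with only the 2 groups, 711 with the run as a block, 795 within the first run alone, 1 within the second alone, and 201 to 498 with 1 array left out, where the main count was 409. It was 576 in the second run for Old CR against Young ND, where it was 2167. For Old CR-ND against Young ND it was 795 in the first run, 621 in the second and 790 at the lowest with 1 array left out, where it was 1203. For Old CR-ND against Old CR it was 235 with array weights, 120 with the run as a block, 10 in the first run, 1 in the second and 17 to 110 with 1 array left out, where it was 57. For Old CR-ND against Old ND, with 1 gene, it ran from 0 to 22. With p adjusted over every probe set, probe sets were counted (28898 tested) and not genes (17097 tested). These counts are therefore larger in unit and cannot be set against the main counts of genes. They were 3078 for Old ND against Young ND, 615 for Old CR against Old ND, 3538 for Old CR against Young ND and 1891 for Old CR-ND against Young ND. Centring each array gave 990 higher and 1166 lower genes in Old CR against Young ND, where the counts without it were 1216 and 951, and 437 and 905 in Old CR-ND against Young ND, where they were 550 and 653. The cause of the changes in the counts of genes was not tested. No paired analysis was possible because the labels give neither replicate numbers that groups share nor the collection day of each mouse.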

Other observations

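Between Old ND and Young ND cells, 1 of 12 macrophage markers, 1 of 11 endothelial markers and 2 of 7 mural cell markers passed the test, beside 10.9% of all genes. Csf1r, a receptor of macrophages, had a mean of 6.48 in Old ND against 7.68 in Young ND cells, and fell by 1.20 ± 0.10 (adjusted p = 1.41e-07 by limma), whereas Ptprc, which encodes the CD45 used to discard blood cells, had means of 3.26 in Old ND and of 3.25 in Young ND cells. Tek, an endothelial receptor, was higher in Old ND by 1.02 ± 0.29 (adjusted p = 0.0239), and Kcnj8, a potassium channel of mural cells, by 1.03 ± 0.27 (adjusted p = 0.0168). Others of the same lists had the opposite sign: the mural marker Des fell by 0.35 ± 0.11 (adjusted p = 0.0407), and the endothelial receptor Kdr differed by -0.91 ± 0.31, which did not pass (adjusted p = 0.0635). The macrophage marker Cd68 had the opposite sign to Csf1r, with means of 7.67 in Old ND and 6.73 in Young ND cells, and did not pass. The median difference of the macrophage list was 0.02. Kcnj8 was higher again in Old CR than in Old ND, at 8.01 and 6.72 (adjusted p = 0.0156). These genes were picked after their values were seen. Of 10 fibroblast markers, 4 passed as lower and 0 as higher in Old ND against Young ND, with a median difference of -0.17. Against Young ND, 4 were lower in Old CR, beside 12.7% of all genes called, and 2 in Old CR-ND, beside 7.04%.

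Keratinocyte markers varied between mice without a call in any comparison, although sorting discarded cells with EpCam. The median difference of the list in Old CR-ND was 0.45 against Old ND, 0.47 against Young ND and 0.13 against Old CR. Their mean log2 level ran from 6.40 to 7.26 in Old CR-ND, 6.31 to 6.86 in Old CR, 5.59 to 7.78 in Old ND and 6.0 to 7.04 in Young ND arrays. Krt5 read 10.49 in Old ND replicate 1 and 7.60 in Old ND replicate 3. Old CR-ND replicate 4, which had the highest Plin2 level, had the highest keratinocyte mean of its group, 7.26. The part of keratinocytes in the Plin2 difference was not tested. Markers of Schwann cells and melanocytes ran from 5.19 to 5.41 in Old CR-ND, 5.07 to 5.20 in Old CR, 5.08 to 5.39 in Old ND and 5.11 to 5.32 in Young ND arrays, and mural cell markers from 5.48 to 5.65 in Old CR-ND, 5.56 to 5.63 in Old CR, 5.33 to 5.56 in Old ND and 5.22 to 5.42 in Young ND arrays.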
